A study of Drosophila melanogaster with 2 samples.

Results

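The NK homeobox cluster of Drosophila melanogaster is a run of 6 homeobox genes, tin, bap, lbl, lbe, C15 and slou, on chromosome arm 3R. Its members were taken as a given list of 6 genes among 13945 annotated protein-coding genes, and peaks were assigned to them by position on the dm6 assembly with the Ensembl release 115 annotation. A peak was included if its summit lay in one of these genes, within 5 kb of one, or between neighbouring ones, which together made a stretch of 188 kb from position 21373977 to 21562182. The measurements were chromatin immunoprecipitation sequencing (ChIP-seq) peaks of a tagged protein, the product of CG2875 fused at its C-terminus to GFP, expressed from a stable transgene in the line CG2875-GFP. Whole embryos of both sexes, aged 0 to 14 h, were immunoprecipitated with an antibody against GFP in 2 biological replicates of 1 group. The design held no second condition and no mock or untagged immunoprecipitation was analysed here, so positions and signals were described and no test between conditions was possible. Nothing in the labels ties a peak to a cell type of the embryo.

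NK-class homeobox genes encode DNA-binding regulators of cell fate and stayed linked in this cluster during insect evolution. tin, the relative of vertebrate Nkx2-5, is needed for dorsal mesoderm and heart, and bap, the relative of Nkx3 genes, acts below tin in visceral mesoderm. lbl and lbe are the ladybird pair, relatives of vertebrate Lbx genes, and set the identity of subsets of heart cells and muscle founders. slou, also known as S59, sets the identity of other muscle founders, and C15, a relative of the vertebrate Tlx genes, is known for its role in the distal leg.

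Of the 6 genes, tin carried a CG2875 peak at its promoter in the authors' thresholded list, and the other 5 did not. The authors' thresholded list, chosen by IDR (the irreproducible discovery rate, which compares the order of peaks in replicates), held 4278 peaks, of which 4 lay in the cluster. All 4 were intergenic, but the share of intergenic peaks in the whole IDR list was not computed. In the order of signal they lay just upstream of the neighbouring gene sp3, at the tin promoter, upstream of slou and upstream of C15. The annotation places tin at 21378977 to 21381970 and bap at 21388880 to 21390449 on the plus strand. lbl lies at 21409979 to 21434133 and lbe at 21441577 to 21446537 on the minus strand. C15 lies at 21499986 to 21512814 on the plus strand and slou at 21548661 to 21557182 on the minus strand, and each of the 6 has 1 annotated TSS. No IDR peak lay within 5 kb of bap, lbl, lbe or C15. A promoter peak here is one with its summit within 500 bp of a transcription start site (TSS), and 1 of the 6 members had one, against 14.0% of all protein-coding genes. In the gene body or within 5 kb of it, 2 of the 6 members, tin and slou, had an IDR summit, against 40.9% of protein-coding genes. With so few genes these counts are descriptions.

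**Figure D1:**
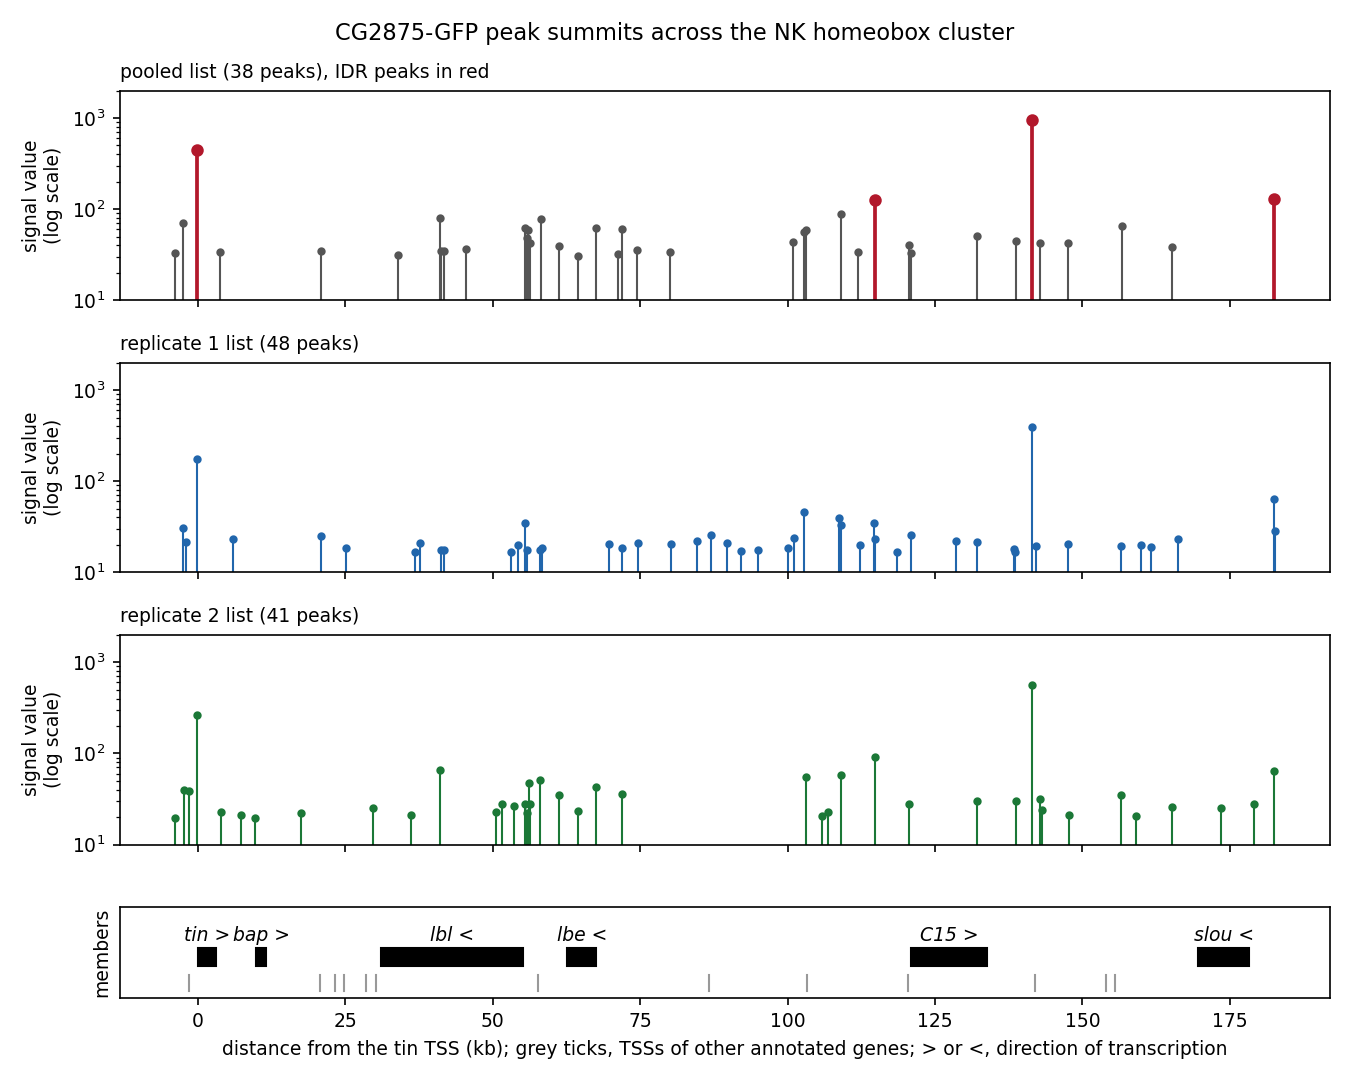
Peak summits across the NK cluster in the pooled list (top, IDR peaks in red), in replicate 1 and in replicate 2, by distance from the tin TSS in kb on the horizontal axis and by signal value on a log scale on the vertical axis, over a map of the 6 genes and of the start sites of other genes. In all 3 lists the peaks at tin and near sp3 stand above the rest, with pooled signals of 442 and 951. The strongest pooled peak in the gene or within 5 kb is 79.6 at lbl, 77.5 at lbe and 50.6 at C15, and bap has none.

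The sequences below are the 201 bp centred on each IDR summit, taken from the dm6 genome (plus strand), because these 4 sites are all that the thresholded list holds in the cluster. Capitals mark matches to a list of 10 motifs described further on.
tin promoter, chr3R:21378670-21378870: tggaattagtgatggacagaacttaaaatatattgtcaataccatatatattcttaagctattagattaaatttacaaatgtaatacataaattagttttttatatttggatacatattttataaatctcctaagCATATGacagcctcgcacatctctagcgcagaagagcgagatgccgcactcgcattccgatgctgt
Upstream of sp3, chr3R:21520280-21520480: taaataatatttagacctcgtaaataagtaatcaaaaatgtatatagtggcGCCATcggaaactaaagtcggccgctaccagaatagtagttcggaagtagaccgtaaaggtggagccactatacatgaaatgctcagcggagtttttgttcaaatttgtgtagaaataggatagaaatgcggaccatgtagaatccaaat
Upstream of slou, chr3R:21561392-21561592: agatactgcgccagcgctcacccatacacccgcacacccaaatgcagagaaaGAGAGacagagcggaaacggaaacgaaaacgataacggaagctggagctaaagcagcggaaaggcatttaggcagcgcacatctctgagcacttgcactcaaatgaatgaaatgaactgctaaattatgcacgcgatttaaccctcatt
Upstream of C15, chr3R:21493705-21493905: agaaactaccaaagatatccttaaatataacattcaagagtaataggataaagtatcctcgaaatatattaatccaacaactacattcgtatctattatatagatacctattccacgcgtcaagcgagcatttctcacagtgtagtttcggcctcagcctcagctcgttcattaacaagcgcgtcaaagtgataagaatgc

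The tin peak covered positions 21378697 to 21378917, a width of 221 bp, with its summit at 21378770. This is 207 bp upstream of the tin TSS, and 10.1, 55.4, 67.8, 121 and 178 kb from those of bap, lbl, lbe, C15 and slou in that order. Its signal, the score that the authors' software gave each peak, was 174 in replicate 1 (rank 627 of 30000) and 264 in replicate 2 (rank 364 of 30000). In the pooled list, made by the authors from both alignments, the signal was 442 and the rank 449. Both replicates therefore placed it high in their own list. Their summits lay 221 and 150 bp upstream of the TSS, 71 bp apart. Among the 1946 protein-coding genes with an IDR promoter summit, the tin peak ranked 285 by signal, and it was 2.16 times their median of 205. The interval was narrower than the median of this list, 424 bp, and 17.8% of IDR peaks were no wider than this one. The peak near sp3, at 295 bp, was also below the median, with 26.5% of IDR peaks no wider. Those upstream of slou and C15 each had the median width of 424 bp.

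tin shares its upstream region with mod(mdg4), whose products include BTB-domain chromatin proteins of insulator complexes. The mod(mdg4) TSS faces away from tin at a distance of 1576 bp, and the tin summit lay 1369 bp from it. No IDR peak lay within 500 bp of the mod(mdg4) TSS. In the replicate lists, replicate 2 had a peak of 39.1 (rank 10321) with its summit 23 bp from this TSS. Replicate 1 had one of 21.3 (rank 20148) at 429 bp. A pooled peak of signal 70.3 lay inside mod(mdg4), 2545 bp upstream of tin. No peak of any list had its summit inside the tin gene, and downstream of it the pooled list held a weak peak of 33.4, at 3741 bp from the TSS.

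**Figure D2:**
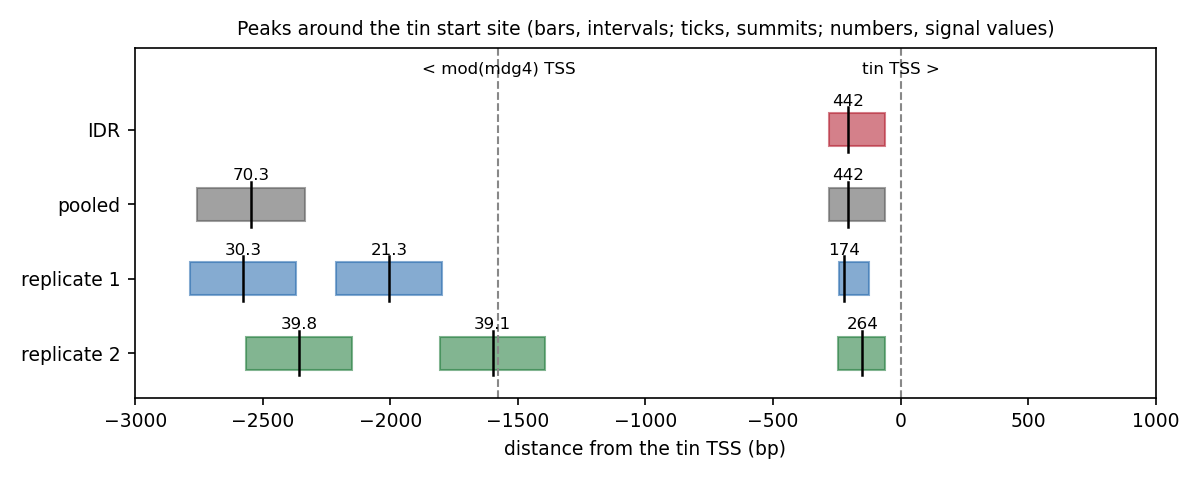
Peak intervals (bars), summits (ticks) and signal values (numbers) of the 4 lists around the tin start site, in bp from the TSS on the horizontal axis. The peak just upstream of tin is present in every list, at 442 in the IDR and pooled lists, 174 in replicate 1 and 264 in replicate 2, and the peaks near or inside mod(mdg4) are weaker and differ in position between replicates.

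Likeness of other genes' promoter peaks to that of tin was measured as the Euclidean distance of log2 signals over the IDR peak and its matches in replicates 1 and 2, among 1620 genes with all 3 values. The nearest was wun, a lipid phosphate phosphatase gene known for guiding migrating germ cells, at a distance of 0.07 with signals of 437, 178 and 254. Next came ctrip, which encodes a ubiquitin ligase of the circadian clock (distance 0.096, signals of 455, 184 and 267), and CG6345 (distance 0.106, signals of 427, 173 and 247). These distances describe peak height in 2 libraries.

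bap had no peak in the IDR or pooled list, either in the gene or within 5 kb. The nearest IDR summit was the tin peak, 10.1 kb upstream. Replicate 1 held 1 peak in that stretch, of signal 23.3 at 3918 bp upstream of the TSS. Replicate 2 held 2, of which the one within 500 bp of the TSS (302 bp upstream) had a signal of 19.6 and rank 29693. The weakest peak of the replicate 2 list had 19.4, so the bap promoter peak stood at the floor of that list. Each relaxed list held 30000 peaks, far more than the IDR list.

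In the pooled list lbl and lbe had only peaks below the weakest IDR signal of 119. The median signal of that whole list was 49.5. The strongest pooled peak in lbl or within 5 kb of it had a signal of 79.6 (rank 7560) in an intron, 14123 bp downstream of the TSS. At this site replicate 2 had 66.0 (rank 4659), and replicate 1 had 17.8 (rank 26848), near the lowest signal of its list, 16.5. At the lbl promoter the pooled list had 61.3 at 383 bp upstream of the TSS, with 34.7 in replicate 1 (rank 8755) and 27.8 in replicate 2 (rank 17563). The order of the replicates at this promoter was thus opposite to that at the intronic site. Farther upstream, pooled summits followed at 585, 860 and 1096 bp from the lbl TSS, with signals of 47.7, 59.3 and 42.1, in intervals that partly overlap.

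At the lbe start site the pooled peak had a signal of 62.4 (rank 10689), with its summit in the 5' UTR, 42 bp from the TSS. Replicate 2 placed its summit at the same base, with a signal of 43.0 and rank 8917. Replicate 1 had no peak within 500 bp of this TSS. The strongest pooled peak within 5 kb of lbe, at 77.5, lay between the ladybird genes, 2951 bp upstream of lbl and 383 bp from the start of a long non-coding RNA gene, lncRNA:CR44089. Its signals were 18.5 in replicate 1 and 50.4 in replicate 2. At 47.3 and 55.4 kb, the nearest IDR summits to lbe and lbl were the most distant of the 6 members.

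slou had an IDR peak in its upstream flank and none at its promoter. The summit, at 21561492, lay 4310 bp upstream of the slou TSS and 61.5, 115, 127, 173 and 183 kb from those of C15, lbe, lbl, bap and tin in that order. The interval covered positions 21561280 to 21561703. Its pooled signal was 130 (rank 3817 of 4278 IDR peaks), near the weakest IDR signal of 119. Replicate 1 gave 63.7 (rank 3407) and replicate 2 gave 64.4 (rank 4845), with summits 114 bp apart. A weaker replicate 1 peak of 28.3 overlapped it, with its summit 89 bp from that of replicate 2. In lists shortened to the 4278 strongest peaks the slou peak was present in replicate 1 and absent from replicate 2. Within 500 bp of the slou TSS no list held a peak.

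C15 lay between a pair of IDR peaks, neither within 5 kb of it. Upstream, a peak at positions 21493593 to 21494016 had its summit 6181 bp from the C15 TSS, between lncRNA:CR44032, whose start site was the nearest at 5600 bp, and Fancm, a gene for a DNA helicase of the Fanconi anaemia pathway. It lay 47.3, 59.7, 63.4, 105 and 115 kb from the start sites of lbe, lbl, slou, bap and tin in that order. Its pooled signal was 125 (rank 4007). The replicates differed here, with 35.2 in replicate 1 (rank 8569) against 91.8 in replicate 2 (rank 2740), for the stronger of 2 overlapping replicate 1 peaks, whose summit was 174 bp from that of replicate 2. The weaker replicate 1 peak had a signal of 23.4 (rank 17014), with its summit 27 bp from that of replicate 2 and 37 bp from the pooled one. Among the 4278 strongest peaks of each replicate this site had a peak in replicate 2 only. At the C15 promoter the pooled list held peaks of 40.8 and 32.9, at 347 and 126 bp upstream of the TSS. Each had a match in 1 replicate, of 27.7 in replicate 2 for the peak at 347 bp and of 25.8 in replicate 1 for that at 126 bp. A long non-coding RNA gene, lncRNA:CR44032, starts close by on the other strand, 234 bp from the first of these summits.

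The strongest peak of the cluster lay beyond C15, near sp3. It covered positions 21520223 to 21520517 with its summit at 21520380, which is 7566 bp past the 3' end of C15 and 548 bp upstream of the sp3 TSS. It is therefore just outside the 500 bp promoter window of sp3, and 20.4 kb from the nearest start site of a member, that of C15. The start sites of slou, lbe, lbl, bap and tin were 36.8, 73.8, 86.2, 132 and 141 kb away in that order. The signal was 393 in replicate 1 (rank 94), 558 in replicate 2 (rank 42) and 951 in the pooled list (rank 61), which is 5.07 times the median IDR signal of 188. Replicate summits lay 29 bp apart. Of the 4 IDR peaks in the cluster, this one and the tin peak were present among the 4278 strongest of both replicates.

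**Figure D3:**
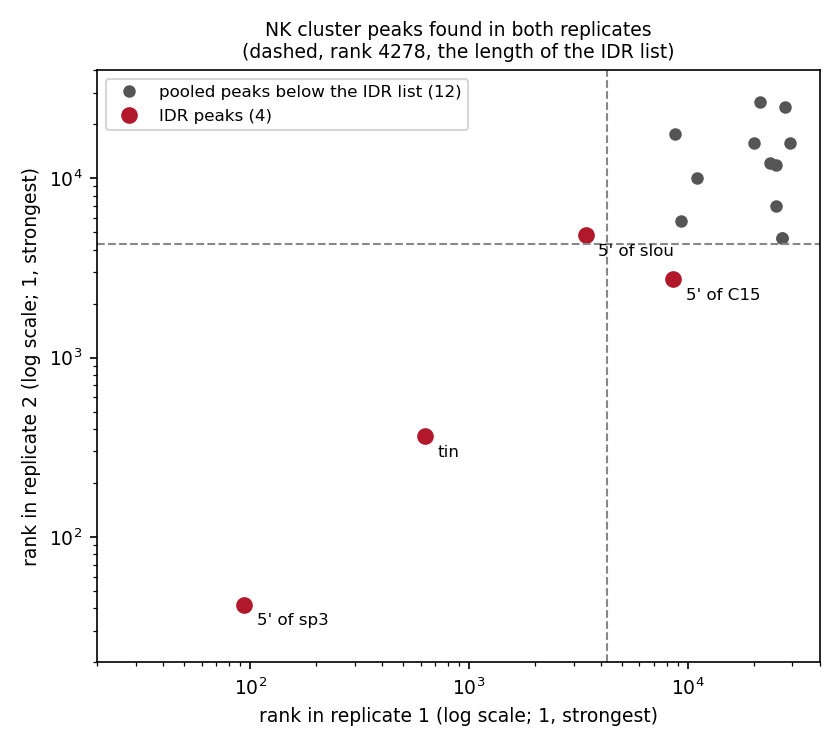
Rank in replicate 1 (horizontal axis) against rank in replicate 2 (vertical axis), both on log scales with 1 the strongest, for the 16 pooled peaks of the NK cluster with a match in both replicates, IDR peaks in red. The peaks near sp3 (ranks 94 and 42) and at tin (627 and 364) lie inside the dashed lines at rank 4278, the peaks upstream of slou and C15 lie inside one of them, and the 12 others lie outside both, where 2 of these share the same replicate peaks and overlap in the plot.

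The relaxed lists added weaker peaks, and their density at each member differed between lists. The pooled list held 38 peaks in the cluster, the 4 IDR peaks included, in 32 stretches after overlapping intervals were merged. This is 20.2 per 100 kb, against 22.4 per 100 kb over chromosomes X, 2L, 2R, 3L, 3R and 4, and the replicate lists gave 25.5 in replicate 1 and 21.8 in replicate 2, against 22.4 each. Within the gene and 5 kb on either side, the pooled list gave 40.1 per 100 kb at lbe, 30.8 at tin, 29.3 at lbl, 17.5 at C15, 10.8 at slou and 0 at bap, from 0 to 10 peaks a gene. In the same order replicate 1 gave 26.7, 30.8, 29.3, 26.3, 16.2 and 8.64, and replicate 2 gave 33.4, 46.2, 32.2, 13.1, 21.6 and 17.3. Overlapping intervals were not merged in these counts, and a peak within 5 kb of both lbl and lbe was counted for each. The IDR list gave 2.13 per 100 kb in the cluster, against 3.2 over those chromosomes. In other homeobox gene clusters the IDR density was 4.6 per 100 kb (Antennapedia complex, 16 peaks in 348 kb) and 2.46 per 100 kb (bithorax complex, 8 peaks in 326 kb). No test of these differences was made. Of the 38 pooled peaks, 26 were intergenic, 10 intronic and 2 exonic, and these classes were not counted over the whole list. Of the same 38, 16 (42.1%) had a match of at least 50% reciprocal overlap in both replicates, as did 50.2% of the whole pooled list. Below the IDR list the share was 12 of 34 (35.3%) in the cluster and 44.6% in all. Within the IDR list all 4 peaks of the cluster had such a match, as did 83.9% of all 4278. The IDR list was itself chosen by comparing the replicates, so these matches are no independent check.

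In the relaxed lists promoter summits were common among all genes, and the members' counts are to be read against that. In the pooled list 4 of the 6 did (tin, lbl, lbe and C15), where 45.3% of protein-coding genes did, and in the gene body or within 5 kb 5 of the 6 did, all except bap, where 83.7% of protein-coding genes did. Replicate 1 gave 3 of the 6 at promoters (tin, lbl and C15, with 43.8% of genes) and replicate 2 gave 5, all except slou (with 47.3% of genes). For the wider window both gave 6 of 6, where 86.9% of genes in replicate 1 and 85.6% in replicate 2 had a summit. In the 4278 strongest peaks of single replicates tin was the single member with a promoter summit, against 13.5% of genes in replicate 1 and 14.5% in replicate 2. In the wider window tin and slou had one in replicate 1, where 40.9% of genes did, and tin alone in replicate 2, where 41.2% did.

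**Figure D4:**
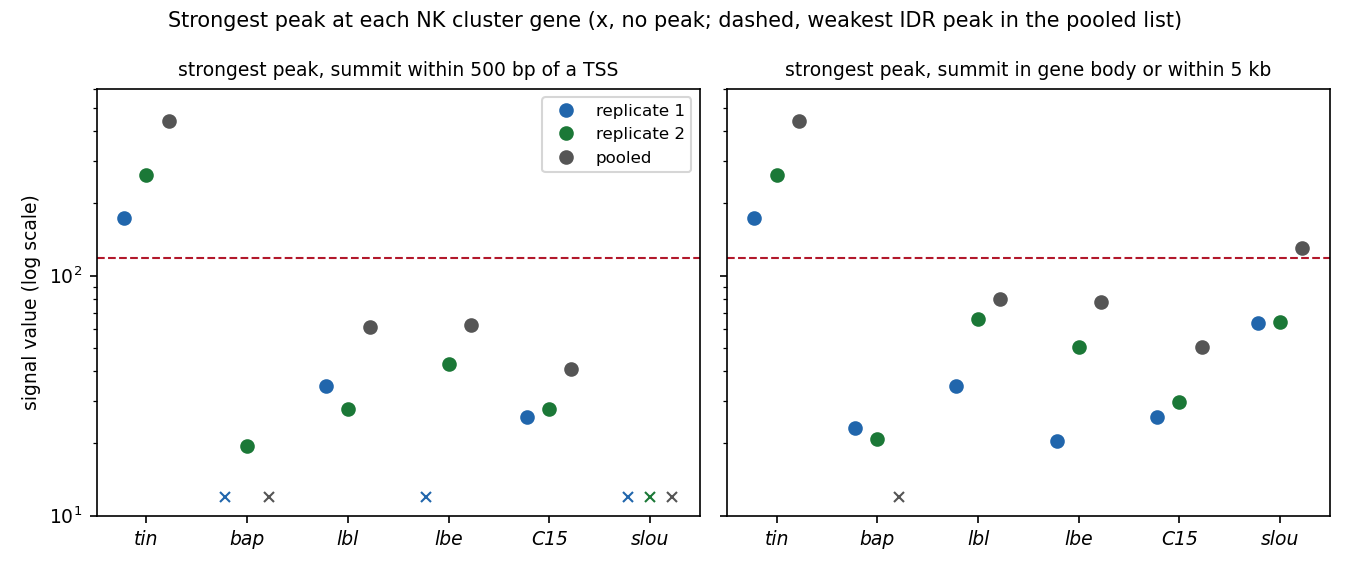
Signal value (log scale) of the strongest peak at each member in replicate 1, replicate 2 and the pooled list, for summits within 500 bp of the TSS (left) and for summits in the gene body or within 5 kb (right). tin is above the weakest IDR signal of 119 (dashed, to be read against the pooled list only) in both panels and slou in the right panel alone, while bap has no pooled peak and slou none at its promoter.

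The other genes of the interval number 13, of which 7 are protein-coding. None of the 13 had an IDR summit within 500 bp of its TSS, where 14.0% of all protein-coding genes had one. The summit near sp3, at 548 bp, lay just outside this window. A share over non-coding genes was not computed. The gap between lbe and C15 was the longest, at 53.4 kb, and held 1 IDR and 12 pooled peaks, including those at Fancm, where pooled summits lay 292 and 582 bp upstream of the TSS with signals of 59.1 and 55.9. The site at 292 bp had a match in replicate 2 only (54.4), and that at 582 bp in replicate 1 only (45.4). The gap between bap and lbl, 19.5 kb with 5 genes (Ugt49B2, lncRNA:CR46046, CG7907, CheB93a and CheB93b), held a single pooled peak, of 34.6 at 110 bp upstream of Ugt49B2, a glycosyltransferase gene. The neighbouring IDR peaks beyond the outer flanks were 13.5 kb past tin, inside mod(mdg4) and 2 bp from the annotated start of pre-mod(mdg4)-E (signal 361), and 33.7 kb past slou, in an intron of the insulin receptor gene InR (signal 916). On this side of tin the outermost pooled peak inside the 5 kb flank had a signal of 33.1, at 3975 bp. The next pooled peak, of 90.0, lay just outside the flank, at 5098 bp.

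Base composition differed among the 4 IDR windows shown above. GC content was 32.3% at tin and 37.8% near sp3, against a median of 35.8% over all 4278 IDR windows (quartiles 31.3 and 41.3%). It was 36.8% upstream of C15 and 48.3% upstream of slou, where 92.6% of IDR windows had a lower value. Repeated sequence was almost absent, as 18 of the 188176 overlapping words of 31 bp in the cluster occurred elsewhere in the genome, none of them within 500 bp of a member's TSS.

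Few of the motifs searched matched, and none matched in more than 1 window. Searched on both strands were the NK-type sites CACTTGA and CACTTAA bound by Tinman, the DRE TATCGATA, GAGAG, the GATA site AGATAAG, the Zelda site CAGGTAG, the E-boxes CATATG and CAGCTG, the Pho core GCCAT and the homeodomain core TAATTA, and their matches in these windows did not overlap. The tin window held CATATG at positions 21378805 to 21378810, 170 bp upstream of the TSS, a word found in 8.46% of all IDR windows. The sp3 window held GCCAT (26.3% of IDR windows) and the slou window GAGAG (24.5%). The C15 window held none. CACTTGA and CACTTAA, in 3.86% and 4.56% of all IDR windows, were in none of the 4. The remaining words, also absent from these 4, were in 1.92% (TATCGATA), 3.41% (AGATAAG), 0.748% (CAGGTAG), 8.63% (CAGCTG) and 15.9% (TAATTA) of all IDR windows. A match is a description of the letters and does not show binding of the factor.

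Of 15 NK-like homeobox genes outside the cluster, 2 (13.3%) had an IDR promoter summit and 4 (26.7%) one in the gene body or within 5 kb, against 14.0% and 40.9% of all protein-coding genes. The 15 genes were chosen with earlier results of these data known, so these shares are descriptions. NK7.1, a homeobox gene of the same class, had a signal of 482 at 433 bp from a TSS (244 in replicate 1 and 243 in replicate 2). H2.0, a homeobox gene of visceral muscle, had 139 at 360 bp (58.9 in replicate 1 and 76.8 in replicate 2).

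A list of 34 genes that act with tin, bap, lbl, lbe and slou in mesoderm, heart and muscle was also examined. It was chosen with earlier results of these data known, so its shares are descriptions and no enrichment was tested. Of the 34 genes, 4 (11.8%) had an IDR promoter summit, against 14.0% of all protein-coding genes. In the gene body or within 5 kb 22 (64.7%) had an IDR summit, against 40.9% of all protein-coding genes. The promoter peak of tin, at 442, was higher in the pooled list than those of the 4 genes with a promoter summit. Poxm, a paired-box gene of muscle, had 373 (171 in replicate 1 and 201 in replicate 2). ush, whose zinc finger product binds the GATA factor Pannier, had 202, Mef2, the muscle regulator downstream of tin, had 139, and mid, a T-box gene of the heart, had 122. The upstream regulators (twi, sna, dpp, Mad, Med, htl, wg, hh and zfh1) had 0 of 9 promoters and 6 of 9 wider stretches with an IDR summit. The 13 heart genes had 3 and 8, the 5 visceral mesoderm genes 0 and 4, and the 7 muscle identity genes 1 and 4, and each of these counts is to be read against the same 14.0% and 40.9%. At Mef2 8 IDR summits lay in the wider stretch, the strongest at 831, and at ush 13, the strongest at 1988. Both genes were picked after values were seen and had the highest counts of the list. The other genes of the list had from 0 (eve among them) to 4 (Fas3). Longer genes span more sequence in the wider stretch, and gene length was not taken into account. A summit shared by neighbouring genes was counted for each. The heart genes Doc2 and Doc3 had the same strongest signals, 231 in the IDR list, 114 in replicate 1 and 120 in replicate 2.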

How the data were processed

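Peak lists from 2 biological replicate libraries of 1 group were used. For dm6 the authors deposited a list for each replicate, a pooled list and an IDR list. Per the file records deposited with them, replicate and pooled lists were made from the alignments with a control alignment, and the IDR list from those lists. Each peak's signal value is the authors' (column 7), never below 0, and served for description and ranking inside each list. Read depth is unknown, so no interval on counts can be given. The aligner, the peak caller and its cut-offs were not given in the sources used here. All 4278 IDR peaks were the 4278 strongest pooled ones. The dm3 lists were not used.

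Summits, ranks (1 the strongest), distances to Ensembl release 115 start sites (18164 genes, transposable elements left out) and sequences from NCBI's Release 6 genome, dm6, were computed with Python 3.11.15, numpy 2.4.6 and pandas 2.3.3, and plots with matplotlib 3.10.9. Coordinates are 1-based. Peaks of different lists were matched by reciprocal overlap of at least 50%. Window and overlap rules were tested on simulated data. The members and gene lists were chosen with earlier results of these data known. The text names the members, their IDR peaks, the strongest relaxed peaks, neighbouring genes, up to 4 genes with the strongest promoter peaks of each gene list, and the 3 genes most like tin. Wider-stretch values of ush and Mef2 and the inverted repeat were added after values were seen. No p-value was computed, because 1 group of 2 replicates allows no test between conditions. Alternatives were other flanks, windows, thresholds and overlap rules and leaving out each replicate.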

Additional observations from a re-analysis of the deposited data

How the results depend on the processing

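Of 24 alternatives, 16 left a count within 1.5 times its value. Without replicate 1 or without replicate 2 (the 4278 strongest peaks of the other), the cluster held 3 peaks instead of 4 in either case, and the promoter count stayed at 1, tin. Members with a summit in the gene body or within 5 kb were 1 to 2, because the slou peak is missing without replicate 1. In the stronger 50% of the IDR peaks 2 peaks remained, at tin and near sp3, and 1 member in the wider window. In the whole relaxed pooled list the counts were 38 peaks, 5 members in the wider window and 4 at promoters. With a flank of 2 kb 1 member had a summit instead of 2, and with 10 kb 3 did. Among the strongest 4278 peaks of each replicate, 2 of the 4 IDR peaks had a match in both. Windows of 250 and 1000 bp, other overlap rules and motif windows of 50 and 150 bp on either side changed none of these counts. Read depth is unknown, so a promoter without a peak was one where none was detectable in these lists. No paired analysis was possible because the series holds 1 group.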

Other observations

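The window near sp3, chosen for a closer look after its sequence was seen, held the word TATAGTGGC at positions 21520322 to 21520330 and its reverse complement GCCACTATA at 21520395 to 21520403, with 64 bp between them and the summit inside that spacer. This word or its reverse complement was in 9 of all 4278 IDR windows (0.21%), this window included. Both together were in 1, which is the sp3 window itself, from which the word was taken. The repeat upstream of C15, GAAACTAC, likewise had both copies in 1 window. An inverted repeat of at least 9 bp was present in 19.8% of IDR windows, so its length alone does not set the sp3 window apart. The longest such repeats in the other windows were 8 bp at tin, 8 bp upstream of C15 and 6 bp upstream of slou, against a median of 7 bp over all IDR windows. In these windows too, each centred on its summit, the summit lay between the copies of the repeat.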
